A study of Mus musculus with 6 samples.

Results

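The genes described here are those of fibroblast growth factor (FGF) signalling: the FGF ligands and their intracellular relatives, the FGF receptors, and genes that the signal switches on and that limit it. They were chosen by name from 36 gene symbols, and 35 of these matched the gene symbol of a probe set on the array, of 20679 genes in all. Fgf21 did not match, because its probe set names a second gene as well. The 35 genes had 77 probe sets, and for each gene the probe set that was highest on average in the 4 fraction arrays is given. RNA from wild type C57Bl6 mice, taken from the liver at E12.5 of embryonic life, was hybridised to Affymetrix Mouse Genome 430 2.0 arrays. The 6 groups were liver cells, cells positive for the adhesion molecule ALCAM (ALCAM+), and 4 fractions of ALCAM+ cells: positive or negative for podoplanin (PDPN+ and PDPN-), and positive or negative for integrin alpha 8 (ITGA8+ and ITGA8-). All 6 share strain, genotype and age, and the labels name no treatment. Each group is 1 array, so there is no spread between samples and no test, and every difference below compares 1 array with 1 other. The labels give neither the number of embryos behind an array nor how the cells were separated.

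FGF ligands are secreted proteins that bind receptor tyrosine kinases on the surface of neighbouring cells, with heparan sulphate as a cofactor. The activated receptor signals through the adaptor FRS2 to RAS and the ERK kinases. ERK signalling induces transcription factors of the ETV group, the ERK phosphatase DUSP6, and the SPRY and SPRED inhibitors, which dampen the same signal. In the embryonic liver, FGFs from neighbouring mesoderm are known for their part in the induction of the organ and in the growth of hepatoblasts. A separate branch of the family, FGF11 to FGF14, is not secreted and binds sodium channels inside the cell.

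Values are array intensities on a linear scale, and differences are of log2(intensity + 16). A gene was "tested" in a comparison, meaning its difference was read, if at least 1 of the 2 arrays was above the median intensity of all probe sets on arrays of that scale. This floor was an intensity of 168 for the 4 fraction arrays and 52 for ALCAM+ and liver cells, whose arrays were on another scale. Genes are called at 2-fold, a log2 difference of 1. Intensities of different genes are not comparable with each other, since probe sets differ in their response. Where a gene had 2 probe sets above the floor, their differences disagreed by a median of 0.30 on the log2 scale between PDPN+ and PDPN- (5365 genes) and 0.48 between ITGA8+ and ITGA8- (5434 genes). That disagreement reached 1.04 and 1.20 at the 90th percentile. It measures error between probe sets within these arrays, not error between samples. In a bulk sample, fewer cells of a type and less RNA per cell cannot be told apart.

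RNA of the selecting markers followed the labels in the pairs compared. Pdpn intensity was 7746 in PDPN+ and 117 in PDPN-, and Itga8 intensity was 4354 in ITGA8+ and 871 in ITGA8-. Alcam was at 13425 in ALCAM+ and 3207 in liver cells. Both splits divide ALCAM+ cells, so the fractions of one overlap those of the other: Itga8 intensity was higher in PDPN- (2215) than PDPN+ (737), and Pdpn higher in ITGA8- (6176) than ITGA8+ (4658). Of 12 hepatoblast markers, none was at or below the floor in liver or ALCAM+ cells, with a summed intensity of 44635 and 74403. The PDPN- array stood apart from the other 3 fractions: its median intensity was 123 against 173 to 200, and it was the lowest of the 4 for 39.4% and the highest for 27.2% of 13394 genes. Over all genes tested, 71.1% of those past 2-fold in the podoplanin split were higher in PDPN+, against 57.1% after quantile normalisation. In the integrin split 46.3% were higher in ITGA8+, against 62.0% after quantile normalisation.

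Of the 18 named secreted ligands, 17 were measured, and 12 of these lay below the floor in all 6 arrays. Fgf2, Fgf3, Fgf6, Fgf7, Fgf8, Fgf10, Fgf15, Fgf16, Fgf17, Fgf20, Fgf22 and Fgf23 were at 1 to 113 in the fractions and at 7 to 28 in ALCAM+ and liver cells. An intensity below the floor does not show that the gene was not expressed. The 5 ligands above the floor were Fgf1, Fgf4, Fgf5, Fgf9 and Fgf18, of which the last 3 had the largest differences in both splits. Of the intracellular branch, Fgf11, Fgf12 and Fgf13 were above the floor in the fractions and Fgf14 was not, with 6 to 90. All 5 receptors and all 9 feedback genes were above the floor in at least 1 fraction.

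Fgf5, Fgf9 and Fgf18 were higher in PDPN+ than in PDPN- cells and also higher in ITGA8- than in ITGA8+ cells. FGF9 is a ligand known from the mesothelium of the embryonic lung, FGF5 from its part in hair growth, and FGF18 from cartilage and lung. The 250 bases before the RefSeq transcription start of these 3 genes (GRCm38.p6) are shown because the genes differed in the same direction in 2 splits that share no array, although both divide ALCAM+ cells. The first lies at chr5:98253934-98254183 on the plus strand, the second at chr14:58072436-58072685 on the plus strand and the third at chr11:33147401-33147650 on the minus strand.
Fgf5: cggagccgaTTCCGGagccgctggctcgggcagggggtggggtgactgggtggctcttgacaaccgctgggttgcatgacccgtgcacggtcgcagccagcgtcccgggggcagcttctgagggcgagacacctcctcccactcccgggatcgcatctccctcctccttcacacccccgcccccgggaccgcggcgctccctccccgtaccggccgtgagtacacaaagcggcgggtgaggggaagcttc
Fgf9: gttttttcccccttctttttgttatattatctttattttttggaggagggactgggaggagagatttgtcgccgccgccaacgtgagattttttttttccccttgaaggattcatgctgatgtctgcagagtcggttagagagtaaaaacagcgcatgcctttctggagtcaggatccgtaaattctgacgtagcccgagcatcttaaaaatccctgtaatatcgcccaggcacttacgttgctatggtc
Fgf18: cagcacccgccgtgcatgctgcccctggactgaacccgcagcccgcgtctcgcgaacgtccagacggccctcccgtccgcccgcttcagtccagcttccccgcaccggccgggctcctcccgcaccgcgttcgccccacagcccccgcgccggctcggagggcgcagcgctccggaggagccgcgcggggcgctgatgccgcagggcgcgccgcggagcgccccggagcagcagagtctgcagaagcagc
Capitals mark matches to 5 short motifs searched on both strands: GGAATG of TEAD factors, GCGTGGG of WT1 and EGR factors, CCGGAA of ETS factors, TGANTCA of AP-1 and the E-box CACGTG. The only match was CCGGAA, read on the opposite strand, 241 to 236 bases before the start of Fgf5. That motif was found in 12.0% of all 32851 promoter windows of this length, GGAATG in 12.6%, TGANTCA in 6.75%, CACGTG in 6.02% and GCGTGGG in 4.30%. No motif was common to the 3 windows, and their GC content was 70.8% for Fgf5, 44.8% for Fgf9 and 77.2% for Fgf18, against a median of 52.4% over all windows. The motifs overlap neither each other nor the start in these windows, and a match is a description of letters, not a site.

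Fgf5 intensity was 753 in PDPN+, 1 in PDPN-, 316 in ITGA8+, 1634 in ITGA8-, 221 in ALCAM+ and 7 in liver cells. It was thus highest in ITGA8- and near the bottom of the scale in PDPN-. The difference was 5.50 on the log2 scale in the podoplanin split and -2.31 for ITGA8+ minus ITGA8-, a 4.97-fold lower level in ITGA8+. Since PDPN- lay far below the floor, the size of the first difference depended on the pseudocount and ran from 3.65 to 8.56 over the settings tried. The other Fgf5 probe set was below the floor in every array (22 to 89 in the fractions), so the result rests on 1 probe set.

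Fgf9 intensity was 1995 in PDPN+, 46 in PDPN-, 287 in ITGA8+, 1162 in ITGA8-, 491 in ALCAM+ and 84 in liver cells. PDPN+ and ITGA8- formed the upper pair, and both stood above the other 2 fractions. The difference was 5.02 on the log2 scale in the podoplanin split and -1.96 for ITGA8+ minus ITGA8-. A second probe set of Fgf9 read 1551, 85, 324 and 1332 in PDPN+, PDPN-, ITGA8+ and ITGA8-. Its differences were 3.96 and -1.99, so both probe sets passed 2-fold in both splits.

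Fgf18 intensity was 630 in PDPN+, 25 in PDPN-, 313 in ITGA8+, 684 in ITGA8-, 144 in ALCAM+ and 28 in liver cells. The order was that of Fgf5. The difference was 3.98 in the podoplanin split and -1.09 for ITGA8+ minus ITGA8-, the second only just past 2-fold. It fell short of 2-fold with a pseudocount of 64 (-0.99) and after quantile normalisation (-0.91), and Fgf18 has 1 probe set.

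Among the genes tested, Fgf5 had the 49th largest difference toward PDPN+ and the 25th largest toward ITGA8-, Fgf9 the 80th and the 69th, and Fgf18 the 223rd and the 625th. Of the 19 FGF genes tested in both splits, these 3 (15.8%) were 2-fold higher both in PDPN+ than PDPN- and in ITGA8- than ITGA8+, as were 2.43% of 11866 genes. None was 2-fold higher both in PDPN- and in ITGA8+, as were 0.742% of genes. The first count lost Fgf18 with a pseudocount of 64 and after quantile normalisation. In the plot of the 2 splits the 3 ligands lie at the lower right.

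**Figure D1:**
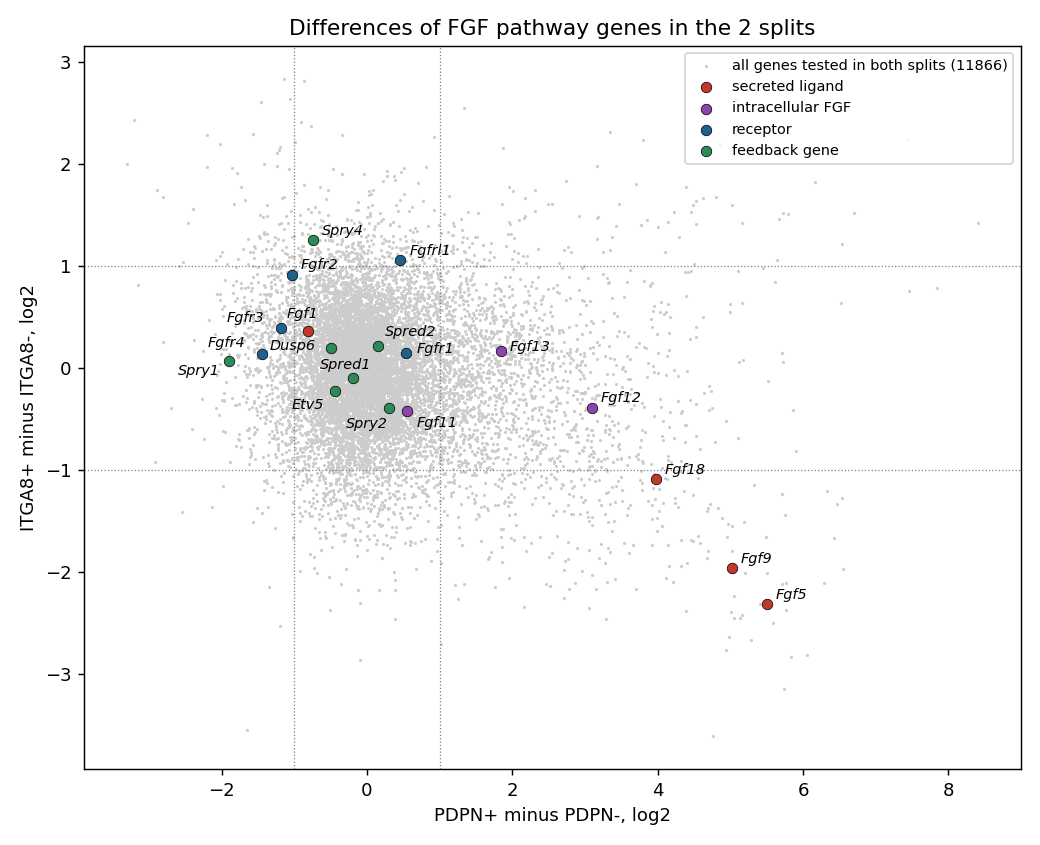
Log2 difference between PDPN+ and PDPN- (horizontal) against that between ITGA8+ and ITGA8- (vertical), 1 array per fraction; grey points are the 11866 genes above the floor in both splits, coloured points the 19 FGF pathway genes among them, and dotted lines mark 2-fold. Fgf5, Fgf9 and Fgf18 are past 2-fold on both axes, toward PDPN+ and ITGA8-.

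Fgf1 and Fgf4 did not share this pattern. Fgf1, a ligand that binds all FGF receptors, was at 153 in PDPN+ and 281 in PDPN-, and 174 in ITGA8+ and 131 in ITGA8-, and its differences of -0.81 and 0.37 were within 2-fold. After quantile normalisation the first was -1.23. Fgf4, a ligand of the early embryo, was at 73 in PDPN+ and 190 in PDPN-, and 71 in ITGA8+ and 51 in ITGA8-. Only PDPN- was above the floor, the log2 difference of -1.21 shrank to -0.89 with a pseudocount of 64, and the 3 other Fgf4 probe sets were below the floor in all 4 fractions.

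The mesothelial markers moved with the 3 ligands. Of 12 such markers, 12 were 2-fold higher in PDPN+ than PDPN- (median 5.19), and 8 of the 11 tested were 2-fold higher in ITGA8- than ITGA8+. Their summed intensity was 65004 in PDPN+ and 1580 in PDPN-, and 23141 in ITGA8+ and 50484 in ITGA8-, and Cldn15 was at 1 in PDPN- and 9 in ITGA8+. Pdpn, the selecting marker of the podoplanin split, is 1 of these 12, so its difference in that split follows from the selection. Of the sums, Pdpn gave 7746 in PDPN+ and 117 in PDPN-. Markers of blood and vessel cells were also low in PDPN-. Macrophage markers summed to 28312 in PDPN+ against 523, 2587 and 1198 in PDPN-, ITGA8+ and ITGA8-, and megakaryocyte markers to 28764 against 272, 35377 and 15329. Endothelial markers summed to 4807 in PDPN+ and 526 in PDPN-, and 6435 in ITGA8+ and 6816 in ITGA8-, and cardiac muscle markers to 12286, 429, 2779 and 9780. Neutrophil markers summed to 23324 in PDPN+ and to 100 to 120 in the other 3, erythroid markers to 7560, 4088, 49141 and 36023, and neural markers to 203, 413, 1716 and 1260. Of the blood and vessel markers, the lowest in PDPN- were C1qc at 1, Pecam1 and Ngp at 2, Gp6 and Vwf at 3 and Camp at 4. In the integrin split, macrophage, megakaryocyte, erythroid and neural sums were higher in ITGA8+. Mesothelial and cardiac muscle sums, and by a small margin endothelial sums, were higher in ITGA8-, as were the 3 ligands. The cardiac muscle sums were mostly Myl7 in PDPN+ (11180) and ITGA8- (8047). Of 4 cardiac muscle markers tested in the integrin split, 1 was 2-fold higher in ITGA8-, with log2 differences from -2.37 to -0.32. The part of these cell types in the ligand differences was not tested.

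The intracellular FGFs were lowest in PDPN- but did not follow the integrin split. Fgf12 was at 291 in PDPN+ and 20 in PDPN-, and 147 in ITGA8+ and 197 in ITGA8-. Its log2 difference was 3.09 in the podoplanin split and -0.39 in the integrin split. Fgf13 was at 353 in PDPN+ and 87 in PDPN-, and 841 in ITGA8+ and 744 in ITGA8-, with differences of 1.84 and 0.17. Fgf11 was at 228 in PDPN+ and 150 in PDPN-, and 616 in ITGA8+ and 830 in ITGA8-, with differences of 0.56 and -0.42. Fgf11 and Fgf13 were thus higher in both fractions of the integrin split than in both of the podoplanin split. The other probe sets of these 3 genes were below the floor.

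**Figure D2:**
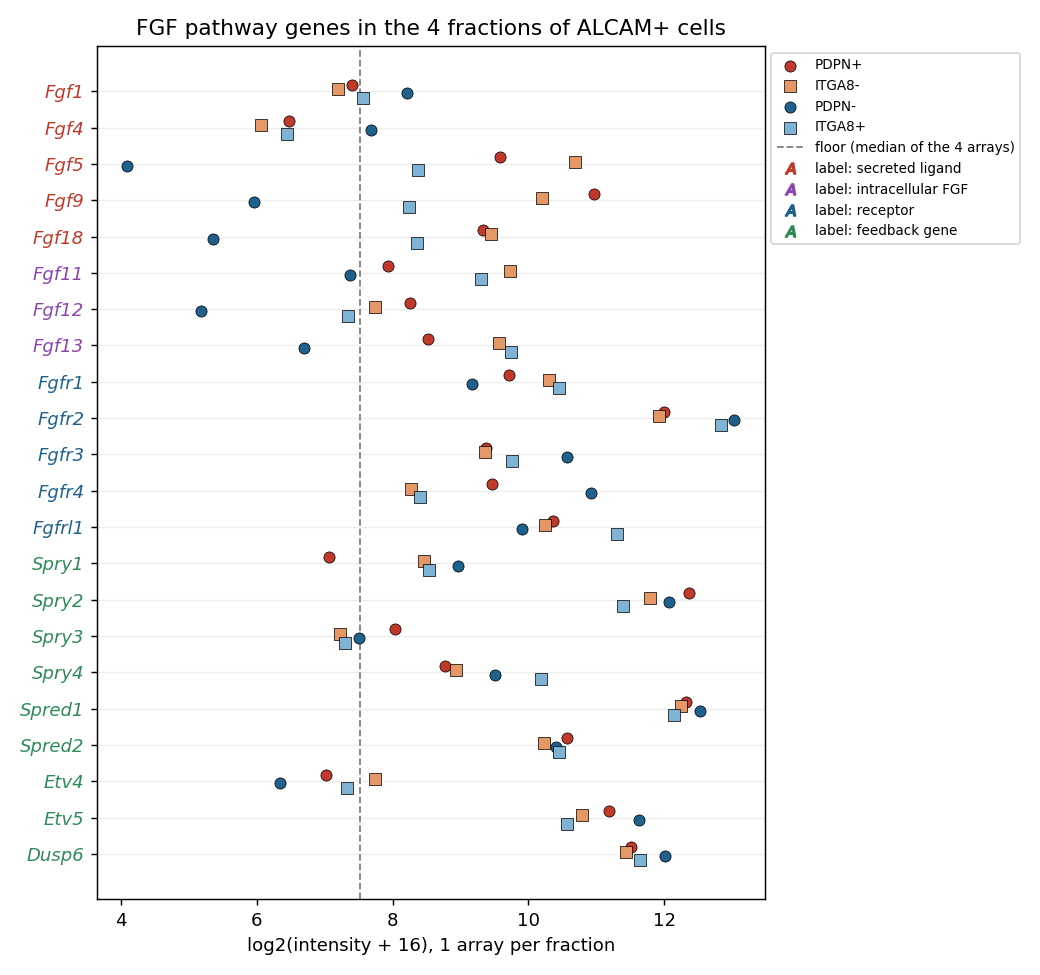
Level of the 22 FGF pathway genes above the floor in at least 1 of the 4 fractions, as log2(intensity + 16) on the horizontal axis with 1 point per array; the dashed line is the floor of 168, and label colours give the gene's role. Fgf5, Fgf9, Fgf18 and Fgf12 fall far to the left in PDPN-, whereas Fgfr2, Fgfr3 and Fgfr4 are highest there.

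Of the 5 receptors, Fgfr2, Fgfr3 and Fgfr4 were 2-fold higher in PDPN- than in PDPN+ cells, the reverse of the 3 ligands. Fgfr1 and Fgfrl1 were within 2-fold, with the higher intensity in PDPN+. FGFR2 in its epithelial form receives FGF7 and FGF10, FGFR3 receives FGF9 among others, and FGFR4 is the main FGF receptor of hepatocytes. Fgfr2 was at 4090 in PDPN+, 8376 in PDPN-, 7346 in ITGA8+, 3878 in ITGA8-, 1527 in ALCAM+ and 356 in liver cells. PDPN- and ITGA8+ were the upper pair, where Fgf9 had its lower pair. The log2 difference was -1.03 in the podoplanin split, at the edge of 2-fold and -0.92 after quantile normalisation, and 0.92 in the integrin split. A second Fgfr2 probe set, at 167 to 298, gave -0.55 and 0.78.

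Fgfr3 was at 651 in PDPN+, 1504 in PDPN-, 849 in ITGA8+, 641 in ITGA8-, 184 in ALCAM+ and 55 in liver cells. PDPN- was the highest and the other 3 fractions lay close together. The differences were -1.19 and 0.40 on the log2 scale, and its other probe set was below the floor. Fgfr4 was at 694 in PDPN+, 1917 in PDPN-, 324 in ITGA8+, 293 in ITGA8-, 117 in ALCAM+ and 37 in liver cells. Both fractions of the podoplanin split were above both of the integrin split. The differences were -1.44 and 0.14, and a second probe set gave -1.58 in the podoplanin split.

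Fgfr1, a receptor common in mesenchyme, was at 823 in PDPN+, 562 in PDPN-, 1384 in ITGA8+, 1246 in ITGA8-, 257 in ALCAM+ and 29 in liver cells. It was higher in both fractions of the integrin split and differed by 0.54 and 0.15 within the splits. Another Fgfr1 probe set gave -0.03 in the podoplanin split, and the 2 other probe sets above the floor in the integrin split gave -0.62 and -0.05. In neither split did the probe sets have a common direction. Fgfrl1, a receptor relative without the kinase, was at 1304 in PDPN+ and 945 in PDPN-, and 2517 in ITGA8+ and 1197 in ITGA8-. It was 2-fold higher in ITGA8+ than ITGA8- (1.06), but its second probe set, at 1290 and 1174, gave 0.13. The plot by probe set shows this gap.

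Hepatoblast and stellate markers are given beside the receptors. Hepatoblast markers summed to 167661 in PDPN+ and 209514 in PDPN-, and 149668 in ITGA8+ and 125117 in ITGA8-. Of 12, 2 were 2-fold higher in PDPN- than PDPN+ (median difference -0.47), and none of 12 passed 2-fold in the integrin split (median 0.26). Stellate markers summed to 30370, 39318, 47829 and 27394 in the same order. Of 12, 2 were higher in PDPN- and 1 in PDPN+, and 6 were higher in ITGA8+ than ITGA8-. No hepatoblast marker was at or near 0 in a fraction, and of the stellate markers Lrat was at 9 in PDPN+. Their part in the receptor differences was not tested.

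Most feedback genes were within 2-fold, as were most genes on the array. Of 8 tested in the podoplanin split 1 was 2-fold higher in PDPN- and 0 in PDPN+, against 7.59% and 18.6% of all genes. Of 8 tested in the integrin split 1 was higher in ITGA8+ and 0 in ITGA8-, against 5.2% and 6.03%, a share near that of all genes. The exceptions were Spry1 and Spry4, which encode sprouty inhibitors of receptor tyrosine kinase signalling. Spry1 was at 117 in PDPN+, 481 in PDPN-, 354 in ITGA8+, 335 in ITGA8-, 188 in ALCAM+ and 32 in liver cells. PDPN+ alone was low, below the floor, and the other 3 fractions lay together. The difference was -1.90 in the podoplanin split, the 106th largest toward PDPN-, and 0.08 in the integrin split, from 1 probe set.

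Spry4 was at 422 in PDPN+, 715 in PDPN-, 1148 in ITGA8+, 471 in ITGA8-, 128 in ALCAM+ and 16 in liver cells. It was highest in ITGA8+ and next in PDPN-. The difference was -0.74 in the podoplanin split and 1.26 in the integrin split. The first passed 2-fold after quantile normalisation (-1.03). A second Spry4 probe set gave -0.78 and 0.29, the same directions but a smaller difference in the integrin split.

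Spry2 was at 5273 in PDPN+ and 4279 in PDPN-, and 2683 in ITGA8+ and 3525 in ITGA8-, with differences of 0.30 and -0.39. Dusp6, the phosphatase of ERK, was at 2921, 4118, 3175 and 2773 in the same order, with differences of -0.49 and 0.19. Etv5, a transcription factor induced by FGF, was at 2321, 3166, 1506 and 1758, with differences of -0.45 and -0.22. All 3 were thus within 2-fold in both splits. Etv4, its close relative, was at 113, 65, 144 and 198 and above the floor only in ITGA8-. The SPRED proteins also inhibit the RAS to ERK step. Spred1 was at 5131, 5886, 4521 and 4836, and its 6 other probe sets above the floor gave differences of -0.57 to 0.52 in the podoplanin split. Spred2 was at 1497, 1346, 1382 and 1189, and Spry3 at 246, 165, 142 and 133. Their differences were within 2-fold where tested.

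**Figure D3:**
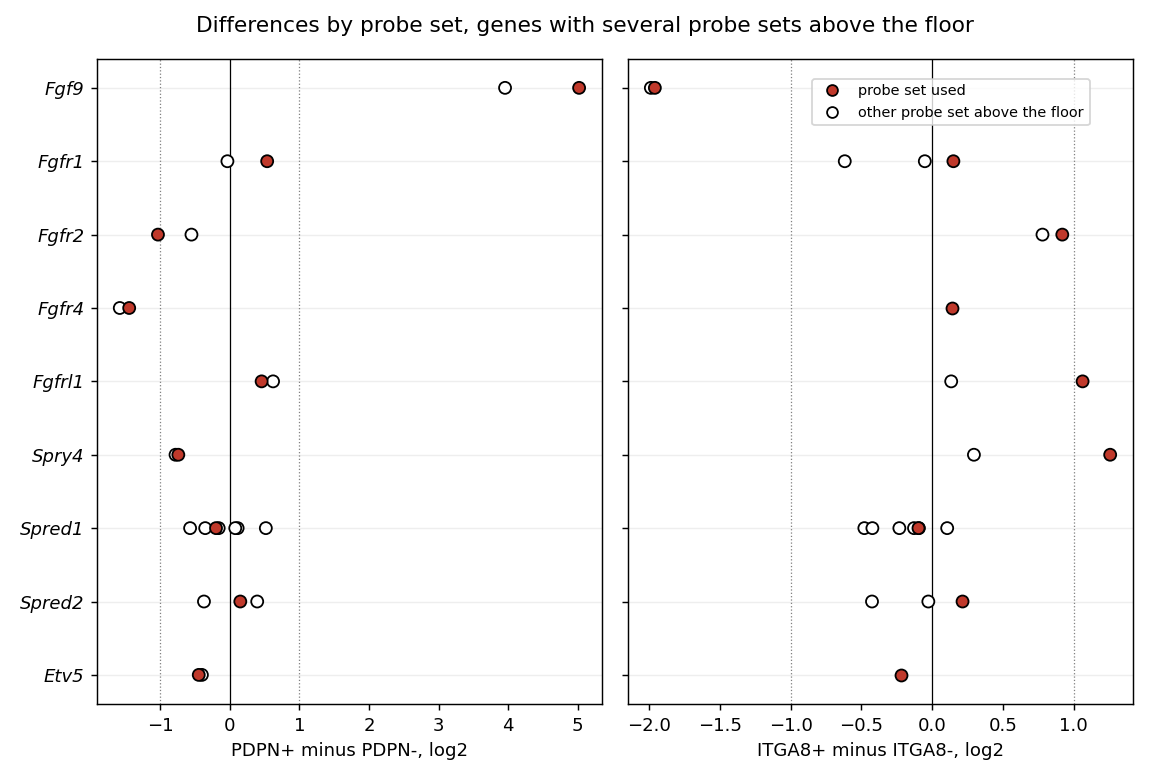
Log2 difference of each probe set above the floor, for the 9 FGF pathway genes with several such probe sets in the podoplanin split, between PDPN+ and PDPN- (left) and ITGA8+ and ITGA8- (right); filled points are the probe sets used and dotted lines mark 2-fold. Both Fgf9 probe sets are far from 0 in both splits, whereas the second probe sets of Fgfrl1 and Spry4 lie nearer to 0 in the integrin split.

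In counts, 21 FGF genes were tested in the podoplanin split. Of these, 5 (23.8%) were 2-fold higher in PDPN+, against 18.6% of 12532 genes, and 5 (23.8%) were 2-fold higher in PDPN-, against 7.59%. The first 5 were Fgf5, Fgf9, Fgf18, Fgf12 and Fgf13, and the second Fgfr2, Fgfr3, Fgfr4, Spry1 and Fgf4. The median over the 21 was 0.15, against 0.03 over the genes tested. PDPN- was the lowest fraction for 9 of the 22 FGF genes above the floor and the highest for another 9. Over 13394 genes these shares were 39.4% and 27.2%, so the first count is near that of all genes. In the integrin split 20 were tested. Of these, 2, Spry4 and Fgfrl1, were 2-fold higher in ITGA8+, against 5.2% of 12728 genes, and 3 were higher in ITGA8-, against 6.03%. The median was 0.11, against 0.00. A gene could pass the floor through 1 high array alone, which favours genes that differ. These counts thus describe the genes tested and not the family.

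ITGA8+ and PDPN+ cells, the positive fractions of the 2 splits, were also set against each other. This comparison shares the ITGA8+ array with the integrin split and the PDPN+ array with the podoplanin split, and it does not use PDPN-. Probe sets of 1 gene disagreed by a median of 0.60 here (5509 genes). Of 20 FGF genes tested, 4 were 2-fold higher in ITGA8+ (14.8% of 13001 genes) and 3 in PDPN+ (14.5%). Higher in ITGA8+ were Spry1 at 1.48 on the log2 scale, Spry4 at 1.41, Fgf11 at 1.37 and Fgf13 at 1.22. Higher in PDPN+ were Fgf9 at -2.73, Fgf5 at -1.21 and Fgfr4 at -1.06, and Fgf18 was at -0.97. Fgfr4 fell short with a pseudocount of 64 (-0.97) and after quantile normalisation (-0.94). Fgf11 and Fgf13 were higher in both fractions of the integrin split, and Fgfr4 in both fractions of the podoplanin split. Their differences here are thus not particular to ITGA8+ or PDPN+ cells. Erythroid markers were higher in ITGA8+ for 8 of 8, stellate markers for 6 of 12 and megakaryocyte markers for 5 of 9. The erythroid sum was 49141 in ITGA8+ against 7560 in PDPN+, and it was also higher in ITGA8- (36023) than in PDPN- (4088). Higher in PDPN+ were 8 of 8 macrophage markers, 5 of 5 neutrophil markers and 9 of 12 mesothelial markers. The part of these cell types in the differences was not tested.

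ALCAM+ cells were compared with liver cells on the other intensity scale. Over 13125 genes the median difference was 0.86 (1.81-fold). This shift was subtracted from the differences below unless stated. Of 18 FGF genes tested, 10 (55.6%) were 2-fold higher in ALCAM+, against 14.4% of genes, and 0 were 2-fold higher in liver cells, against 11.9%. The median over the 18 was 1.07. Of the 10, Fgf5, Fgf11, Fgf18, Fgfr1, Spry1 and Spry4 were above the floor of 52 in ALCAM+ only. No FGF gene was above it in liver cells only. Passing the floor through ALCAM+ alone favours genes higher in ALCAM+, so these counts describe the genes tested and not the family. As deposited, without the shift, 16 of 18 were 2-fold higher, against 43.4% of genes, and 93.0% of the genes past 2-fold were higher in ALCAM+, against 54.8% relative to the shift. With a pseudocount of 64 there were 5 of the FGF genes relative to the shift, against 10.5% of genes. Fgf11, Fgf18, Fgfrl1, Spry1 and Spry4 then fell short of 2-fold. Probe sets of 1 gene disagreed by a median of 0.54 in this comparison (5550 genes).

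By role, 3 of 4 ligands, 3 of 5 receptors, 3 of 7 feedback genes and 1 of 2 intracellular FGFs were higher in ALCAM+ cells. Fgf5 had the largest difference, 2.51, from 221 in ALCAM+ and 7 in liver cells, and Fgf9 was at 1.49 and Fgf18 at 1.01. The second Fgf9 probe set read 614 and 59. Of the receptors, Fgfr1 was at 1.74, Fgfr2 at 1.20 and Fgfrl1 at 1.14, whereas Fgfr3, at 0.64, and Fgfr4, at 0.47, were within 2-fold. The second Fgfr2 probe set, at 66 and 50, did not share the higher level in ALCAM+: its difference was 0.31 as deposited, below the shift. The second Fgfrl1 probe set, at 337 and 154, went the same way as the first but was within 2-fold. Of the 2 other Fgfr1 probe sets, both went the same way and 1 passed 2-fold. Spry2, at 1947 in ALCAM+ and 368 in liver cells, had a difference of 1.50, Spry4 1.31 and Spry1 1.23. A second Spry4 probe set, at 156 and 40, went the same way but was within 2-fold. Dusp6 (1567 and 491) had a difference of 0.79, Spred1 (1116 and 357) 0.74, Etv5 (428 and 143) 0.62 and Spred2 (267 and 170) -0.25. Fgf11, at 97 in ALCAM+ and 9 in liver cells, had a difference of 1.32, and Fgf13, at 177 and 165, of -0.76. Fgf1, at 104 and 34, was within 2-fold at 0.41. Below the floor in both were Fgf4 (33 and 10), Fgf12 (44 and 42), Spry3 (24 and 6) and Etv4 (23 and 16). Fgfrl1 was at 491 and 111. Mesothelial markers were 2-fold higher in ALCAM+ for 10 of 12 and stellate markers for 7 of 12, and erythroid markers were lower for 8 of 8. Their part was not tested.

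**Figure D4:**
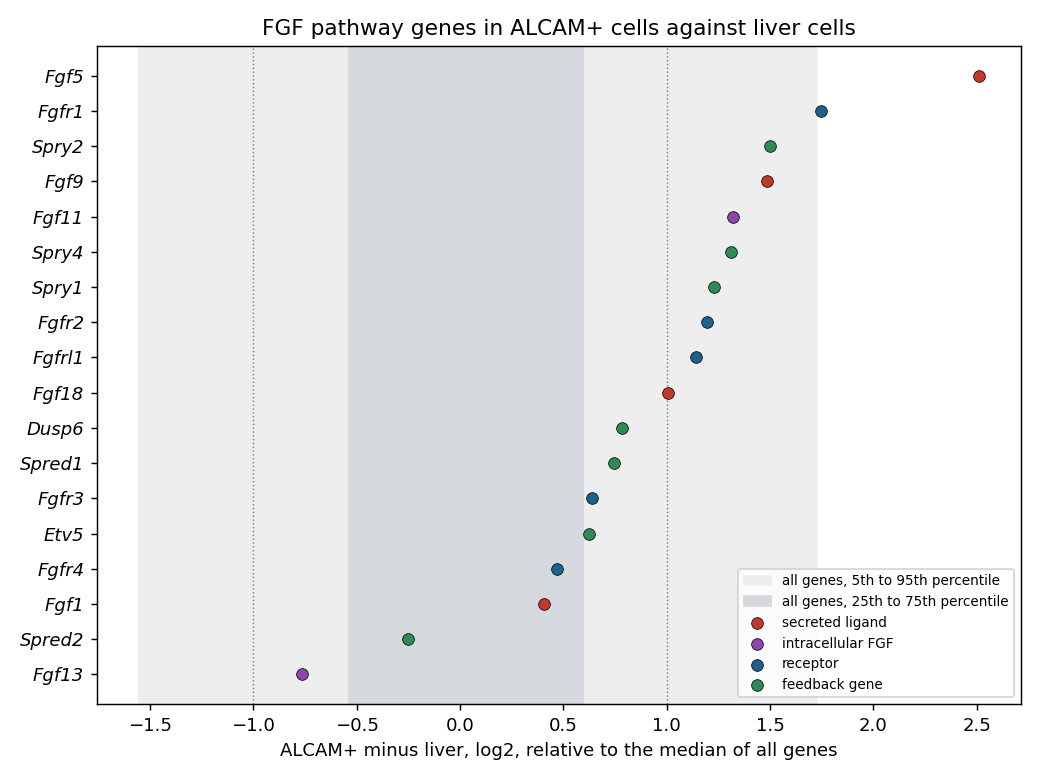
Log2 difference between ALCAM+ and liver cells relative to the median of all genes, for the 18 FGF pathway genes above the floor of 52, with 1 array per group; dotted lines mark 2-fold, and the grey bands are central ranges of all 13125 genes. Fgf5 is the highest at 2.51, and Fgf13 the lowest at -0.76.

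The rest of the pathway was described from 4 lists of other genes. Of 18 genes that relay the signal inside the cell, among them the adaptors Frs2 and Grb2, 18 were tested in the podoplanin split and none passed 2-fold (median 0.14). In the integrin split none of 17 did (median -0.26). In the podoplanin split Nras was at 0.84, Frs2 at 0.73 and Hras at -0.65. In the integrin split Ptpn11 was at 0.65, Braf at -0.93 and Map2k1 at -0.68.

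Of 6 genes of coreceptors and binding proteins tested in the podoplanin split, 4 were higher in PDPN+, against 18.6% of all genes, and 1 in PDPN-, against 7.59% (median 2.15). Flrt2 was at 1.98 and Il17rd, an inhibitor of FGF signalling, at 2.31. FLRT proteins are transmembrane partners of FGF receptors. Flrt1 was at 1910 in PDPN+ and 66 in PDPN-, and 420 in ITGA8+ and 1350 in ITGA8-, and Flrt3 at 2343, 126, 674 and 2005. Both had the order of Fgf9, with differences of 4.55 and 4.05 in the podoplanin split and -1.65 and -1.55 in the integrin split. Klb, which encodes the beta-klotho coreceptor that FGFR4 needs for endocrine FGFs, was at 1703, 3779, 885 and 704, the order of Fgfr4. Its difference was -1.14 in the podoplanin split and 0.32 in the integrin split, where Flrt2 was at 0.47. Of the 6 tested in the integrin split, 2 were higher in ITGA8- and 0 in ITGA8+ (median -0.54), against 6.03% and 5.2% of all genes. Kl and Fgfbp1 were below the floor in the fractions.

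Of 11 genes of heparan sulphate synthesis and editing tested, 2 were higher in PDPN+ and 0 in PDPN- (median 0.38), and the first count is near the 18.6% of all genes. They were Sulf1, a sulphatase that trims heparan sulphate at the cell surface, at 3.27, and the sulphotransferase gene Hs6st2 at 1.94; the lowest were Ndst2 at -0.34 and Glce at -0.18. Sulf1 was at 13146 in PDPN+ and 1347 in PDPN-, and 9084 in ITGA8+ and 12496 in ITGA8-. None of 11 passed 2-fold in the integrin split (median -0.52), and all 11 differences there were below 0, from Ext1 at -0.70 and Hs6st2 at -0.68 to Glce at -0.11.

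Of the list of other ERK pathway targets and inhibitors, 11 were tested in the podoplanin split, 3 higher in PDPN+ and 1 in PDPN- (median 0.32), against 18.6% and 7.59% of all genes. After quantile normalisation the balance turned, with 1 higher in PDPN+ and 2 in PDPN-, against 14.1% and 10.6% of all genes. In the integrin split 3 of 12 were higher in ITGA8+ and 3 in ITGA8- (median -0.06), against 5.2% and 6.03%. The count in ITGA8- was 1 when only probe sets named by a number and _at were used. The phosphatase gene Dusp5 was at 4041 in PDPN+ and 1977 in PDPN-, and 624 in ITGA8+ and 2388 in ITGA8-, with differences of 1.03 and -1.91. Phlda1 was at 551, 1834, 3042 and 1347, with differences of -1.71 and 1.17, the reverse of Dusp5. Ier3 was at 3.95 and -1.04, Spsb1 at 1.17 and 1.31, Myc at -0.72 and -1.37. Egr1, an immediate early gene, was at 0.13 and -0.06. Etv1, a relative of Etv4, was at 1.04 in the integrin split.

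The same lists were counted in the other comparisons. Between ALCAM+ and liver cells, coreceptors and binding proteins were higher in ALCAM+ for 4 of 7 (Flrt1 at 3.12, Flrt2 at 2.22, Flrt3 at 2.21 and Il17rd at 1.78) and lower for 0. Of 18 relay genes Plcg1 was higher, at 1.10, and Hras lower, at -1.20, and of 11 heparan sulphate genes Sulf1 was higher, at 2.24, and Hs6st1 lower, at -1.12. Of 12 ERK targets 3 were higher (Spsb1, Rasa2 and Dusp5) and 2 lower (Ier3 and Myc). Over all genes these shares were 14.4% and 11.9%. As deposited, without the shift, 5 relay genes were higher and 0 lower, 5 and 0 coreceptors and binding proteins, 8 and 0 heparan sulphate genes, and 8 and 1 ERK targets. The shares of all genes as deposited were 43.4% higher and 3.28% lower. Between ITGA8+ and PDPN+, Flrt2 was higher in ITGA8+, at 1.90, and Flrt1 and Flrt3 lower, at -2.14 and -1.77. Of the relay genes 1 of 18 passed 2-fold, Frs3 at -1.70, and of the heparan sulphate genes 0 of 11. Of 12 ERK targets 3 were higher in ITGA8+ (Phlda1, Etv1 and Spsb1) and 1 in PDPN+ (Dusp5). In this comparison 14.8% of all genes were 2-fold higher in ITGA8+ and 14.5% in PDPN+. Genes named here outside the splits were chosen after their values were seen.

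**Figure D5:**
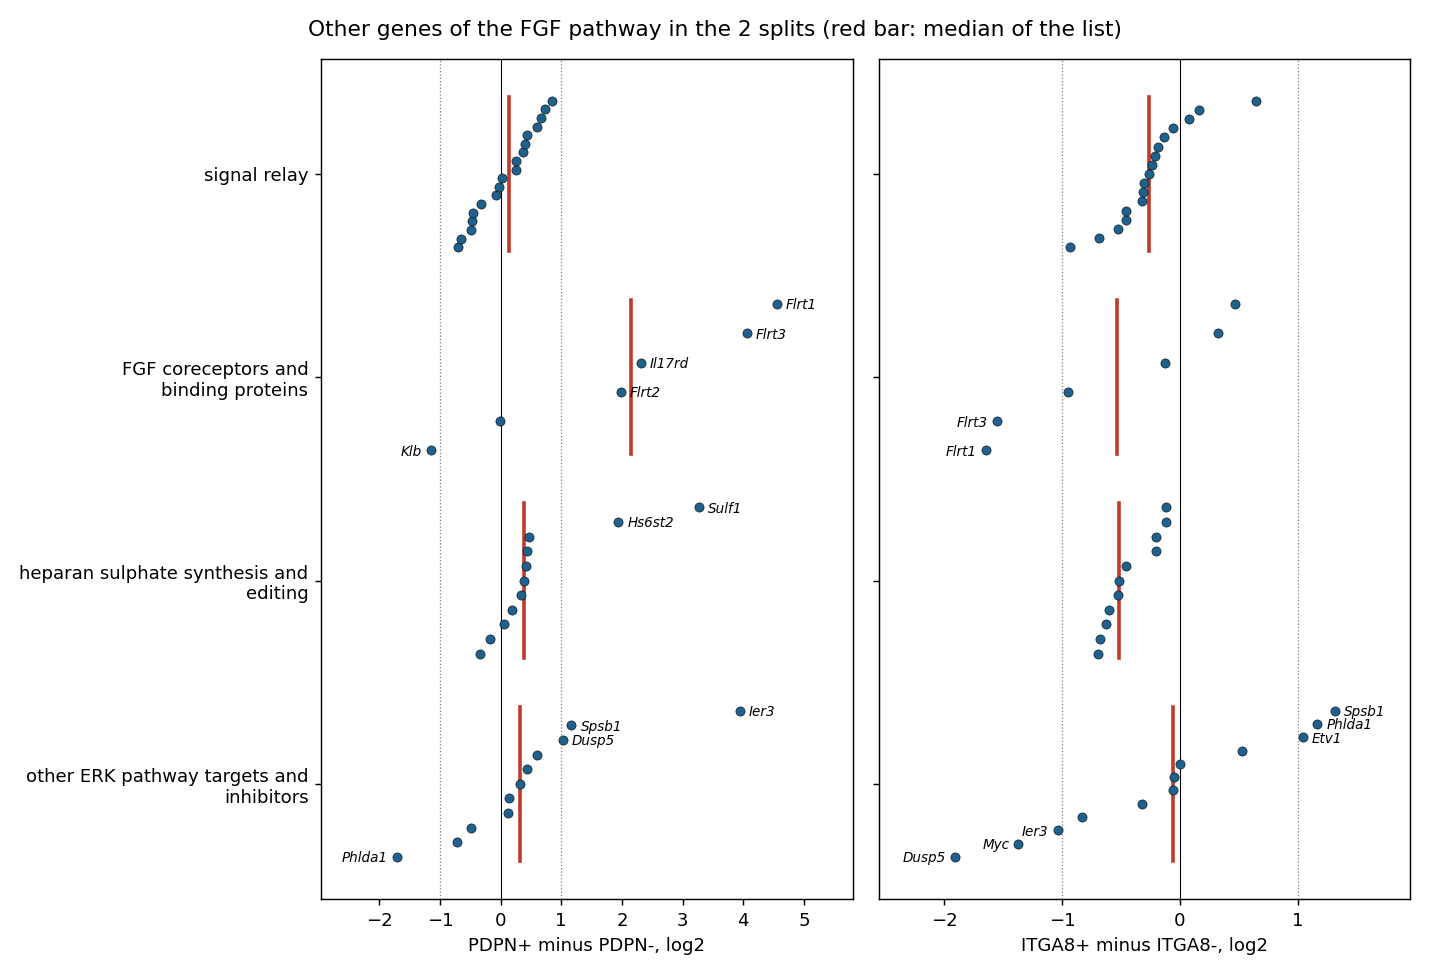
Log2 differences of the other FGF pathway genes above the floor between PDPN+ and PDPN- (left) and ITGA8+ and ITGA8- (right), 1 point per gene and 1 row per list; dotted lines mark 2-fold, and genes past it are named. Flrt1 and Flrt3 are past 2-fold toward PDPN+ and toward ITGA8-, and every relay gene lies within 2-fold in both splits.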

How the data were processed

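Gene expression was measured in 6 samples of mouse embryo liver, 1 array each, and groups came from the source labels. Biotinylated probes came from 20 ng of RNA after amplification, per the labels' protocols. The deposited values are intensity values, whole numbers on a linear scale; the tools named in the submitters' processing notes are RMA and Partek. For tool versions and genome build: not given in the sources used here. On inspection, the 4 fraction arrays share a mean of 996 to 997 after trimming 2% at each end, whereas ALCAM+ and liver had 331 and 196, so comparisons stayed within each set.

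Of 45101 probe sets, 38024 named 1 gene, and 92.1% of these matched a RefSeq gene by Entrez identifier. From the files, log2(intensity + 16), differences, the floor and counts at 2-fold were computed in Python 3.11.15 with pandas 2.3.3; the steps were tested on simulated data. Receptors, feedback genes and members past 2-fold are given array by array, and from each other pathway list up to 2 genes per direction and split. Some relay genes that this rule selects are not reported here. The floor was set per scale. The members, lists and motifs were chosen with earlier results of these data known. Promoter sequences are from RefSeq, GRCm38.p6, which had entries for 26 of the 36 genes. Alternatives were other pseudocounts, floors, probe set choices and quantile normalisation. The number of arrays limits the precision.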

Additional observations from a re-analysis of the deposited data

How the results depend on the processing

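Of 257 values of the 32 differences past 2-fold under the alternatives, 257 kept their direction and 244 stayed past 2-fold; 23 of the 32 did so under every alternative that gave a value. Of 82 counts under alternatives, 77 were within 1.5 times of the count reported, and of 264 counts over the other pathway lists 241. The count higher in ITGA8+ than ITGA8- went from 2 to 1 when only probe sets named by a number and _at were used, since Fgfrl1 has no such probe set and dropped out, with 17 genes left in place of 20. The count higher in ALCAM+ than liver cells, 10, was 5 with a pseudocount of 64 and 16 as deposited without the shift. Over all genes the share, 14.4%, was 10.5% and 43.4% under these settings. The count higher in liver cells, 0, was 1 with no floor. The count higher both in PDPN- than PDPN+ and in ITGA8+ than ITGA8-, 0, was 1 after quantile normalisation, that gene being Spry4. Except where the alternative's own construction shows it, the cause was not tested. No paired analysis was possible because each group is 1 array. No count can be checked for the spread between samples, and signals near the floor limit the differences of Fgf1, Fgf4, Fgf12, Spry1 and Spry3. Fgf5, Fgf9 and Fgf18 were far below the floor in PDPN-, which limits the size of their podoplanin differences. Over the settings these ran from 3.65 to 8.56 for Fgf5, 4.23 to 5.41 for Fgf9 and 2.96 to 4.60 for Fgf18.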

Other observations

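The probe set that names Fgf21 together with a second gene was at 3 in PDPN+ and 11 in PDPN-, 10 in ITGA8+ and 4 in ITGA8-, 14 in ALCAM+ and 11 in liver cells, below the floor in all 6 arrays. FGF21 is an endocrine hormone of the adult liver. The other endocrine FGFs, Fgf15 and Fgf23, were also below the floor in all 6 arrays, with Fgf15 at 3 to 18 and Fgf23 at 5 to 22 in the fractions.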
